A study of Mus musculus with 21 samples.

Results

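The clustered histone genes are the 68 gene rows of the count table whose symbol begins with Hist1h, Hist2h, Hist3h or Hist4h, out of 33861 rows in all. They comprise 6 H1, 19 H2A, 19 H2B, 11 H3 and 13 H4 genes. By symbol, 56 belong to Hist1 on chromosome 13 and 8 to Hist2 on chromosome 3. Another 3 belong to Hist3 on chromosome 11, and 1, Hist4h4, lies on chromosome 6. In GENCODE M21, 65 of the 68 are protein-coding and 3, Hist1h2aj, Hist1h2al and Hist3h2bb-ps, are pseudogenes. Hist1h2al (chr13:51202727-51203065) lies apart from the other Hist1 members, which lie between bases 21715763 and 23934851.

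The RNA came from mouse pluripotent cells in culture and from epiblasts, the embryonic tissue that forms the body. The FS group is a formative stem cell culture in a medium named A3XR and holds 6 samples, with passages 10, 11 and 18 of line 1, and passages 12, 13 and 16 of line 2. The AF and AFX groups are epiblast stem cells (EpiSCs) in media of the same names, each with E14, a mouse embryonic stem cell line, in its sample names and each collected at passages 14, 15 and 16. Every cultured sample held 1000 cells, and the passages of a line share 1 derivation. The embryonic groups are 3 individually collected epiblasts at each of the stages E5.0, E5.5 and E6.0; titles are followed here, although another label field gives a later day for the oldest group. No genotype, strain, sex or treatment beyond the medium is given. FS differs from AF and AFX in line as well as in medium. The type of library made from the total RNA is not given in the sources used here.

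Replication-dependent histone genes are transcribed mainly in S phase, when new nucleosomes are assembled on copied DNA. H2A, H2B, H3 and H4 form the nucleosome core and H1 binds the linker DNA between cores. Their mRNAs normally end in a conserved stem-loop instead of a poly(A) tail, and the stem-loop binding protein SLBP directs their processing, translation and decay. Among the members, Hist1h1t, Hist1h2aa and Hist1h2ba encode the testis-type histones H1t, TH2A and TH2B, which are best known from spermatogenesis, and the last pair is also known from oocytes.

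The stem-loop and the promoter are the sequences that the members share. Stem-loops are shown here as examples of the forms found, and promoters for members to which the results return. A stem-loop, searched for as a hairpin pattern in the transcript sequences of GENCODE M21, was found in 44 of the 68 members and in 86 of 55450 genes in all (0.155%). The 24 members without a match include genes whose annotated transcript stops at or near the stop codon, among them Hist1h2ai and Hist1h2aa, so a missing match says nothing of the RNA itself. The 6 stretches below give the stem-loop with 5 bases on each side, and the capitals mark the loop of 4 bases.
Hist1h2ab: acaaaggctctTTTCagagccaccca
Hist1h1t: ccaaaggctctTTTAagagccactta
Hist2h2ac: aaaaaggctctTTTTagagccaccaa
Hist1h3g: ttaaaggctctTCTTagagccaccca
Hist1h4c: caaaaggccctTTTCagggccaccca
Hist1h4b: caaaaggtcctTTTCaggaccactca
The form of Hist1h2ab was found in 3 H1, 9 H2A, 8 H2B and 4 H3 genes. The 12 H4 genes with a match had other stems, 7 of them the stem and loop of Hist1h4c, 3 its stem with another loop and 2 the form of Hist1h4b. Hist2h2ac was the only H2A gene with the loop shown, and Hist1h3g the only H3 gene with its loop.

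Promoters, from 250 bases before to 50 bases after the transcription start, were matched in RefSeq (GRCm38.p6) for 59 members. The letters CCAAT, on either strand, were present in all 5 H1, 17 H2A, 16 H2B and 9 H3 promoters and in 3 of 12 H4 promoters, against 37.9% of 27025 gene promoters. TATAAA was present in 33 of the 59 (55.9%), against 14.2%. ATTTGCAT, the octamer motif known from H2B promoters, was present in 7 H2A and 6 H2B promoters (22% of the 59), against 1.75%. GGTCCG, part of an H4 promoter element, was present in 11 of 12 H4 promoters, 1 H2B and 1 H3 promoter, against 8.39%. The 4 promoters below belong to members whose levels differed between groups. The capitals mark these motifs on either strand, no motif was searched for in part, and a match is a description of the letters only.
Hist1h2aa, chr13:23934187-23934486, plus strand: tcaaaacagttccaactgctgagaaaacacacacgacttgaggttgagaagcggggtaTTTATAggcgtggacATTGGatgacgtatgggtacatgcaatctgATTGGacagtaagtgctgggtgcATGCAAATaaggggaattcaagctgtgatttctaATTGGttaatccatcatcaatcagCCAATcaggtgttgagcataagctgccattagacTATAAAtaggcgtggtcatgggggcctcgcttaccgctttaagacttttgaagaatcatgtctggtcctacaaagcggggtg
Hist1h1t, chr13:23695561-23695860, plus strand: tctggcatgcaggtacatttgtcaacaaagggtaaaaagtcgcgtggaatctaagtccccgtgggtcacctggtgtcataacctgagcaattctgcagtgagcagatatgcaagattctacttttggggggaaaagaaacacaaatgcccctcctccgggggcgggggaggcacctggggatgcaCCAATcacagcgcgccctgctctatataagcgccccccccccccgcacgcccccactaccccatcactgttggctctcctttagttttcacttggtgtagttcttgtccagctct
Hist1h4c, chr13:23698409-23698708, minus strand: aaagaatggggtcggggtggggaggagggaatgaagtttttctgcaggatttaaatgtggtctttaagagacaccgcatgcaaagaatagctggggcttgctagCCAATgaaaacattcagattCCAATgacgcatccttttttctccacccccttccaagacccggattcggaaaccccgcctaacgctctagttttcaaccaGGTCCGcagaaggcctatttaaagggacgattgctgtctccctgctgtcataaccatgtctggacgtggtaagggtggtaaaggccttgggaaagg
Hist3h2ba, chr11:58948661-58948960, plus strand: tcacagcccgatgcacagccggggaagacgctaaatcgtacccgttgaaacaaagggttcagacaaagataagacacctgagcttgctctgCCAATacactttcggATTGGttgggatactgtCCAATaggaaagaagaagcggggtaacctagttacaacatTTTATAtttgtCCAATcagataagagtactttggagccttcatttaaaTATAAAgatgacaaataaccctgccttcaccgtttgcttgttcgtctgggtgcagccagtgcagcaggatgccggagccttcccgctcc
Hist1h2ba starts on the strand opposite to Hist1h2aa with 305 bases between the annotated genes, and its promoter window shares 220 bases with the first one shown. Among the members, 15 such divergent pairs lie 172 to 659 bases apart, and 14 of the 15 join an H2A gene with an H2B gene.

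Total counts ran from 5827093 to 15916800 per sample. Loci of ribosomal RNA took 20.0% to 31.7% of the counts, the most in E5.0 embryo 2. Levels below are CPM, a sample's counts scaled to a fixed total. The epiblast marker list was present in every group. The visceral endoderm list of 8 genes summed to 70.7 to 236 CPM in E5.0, 50.7 to 78.9 in AF, 15.4 to 28.6 in E5.5, 3.38 to 5.26 in E6.0 and at most 1.86 in FS, where all 8 genes were under 1 CPM in every sample. In AF, 4 of the 8 genes were under 1 CPM in every sample. The feeder fibroblast list of 5 genes summed to 149.7 to 173.9 CPM in AF, 16 to 47.6 in FS and 27.5 to 49.3 in AFX.

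Members drew 0.351% to 1.21% of all counts, with a median over samples of 0.874%. In FS line 1 the summed level was 10071, 9094 and 10219 CPM at passages 10, 11 and 18, and in line 2 it was 8802, 7625 and 9713 CPM at passages 12, 13 and 16. AF gave 6493, 5492 and 6688 CPM and AFX 8742, 6879 and 6619 CPM at passages 14, 15 and 16. All 6 FS samples were above all 3 AF samples, while 1 AFX sample lay within the FS range. E5.0 gave 8213, 3510 and 7214 CPM in embryos 1, 2 and 4, E5.5 gave 9249, 8589 and 11022 CPM and E6.0 gave 10035, 10993 and 12137 CPM in embryos 1, 2 and 3. E6.0 embryos were all above the E5.0 embryos, and E5.0 embryo 2 was the lowest of the 21 samples. The ratio of mean summed levels was 1.49 for FS to AF, 1.25 for FS to AFX, 1.19 for AFX to AF, 1.52 for E5.5 to E5.0, 1.75 for E6.0 to E5.0 and 0.962 for FS to E5.5. Without E5.0 embryo 2 the E5.5 to E5.0 ratio was 1.25 and the E6.0 to E5.0 ratio 1.43. A sum over chosen members is a description and carries no test. In bulk RNA, fewer cells in S phase and less histone RNA per cell cannot be told apart.

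**Figure D1:**
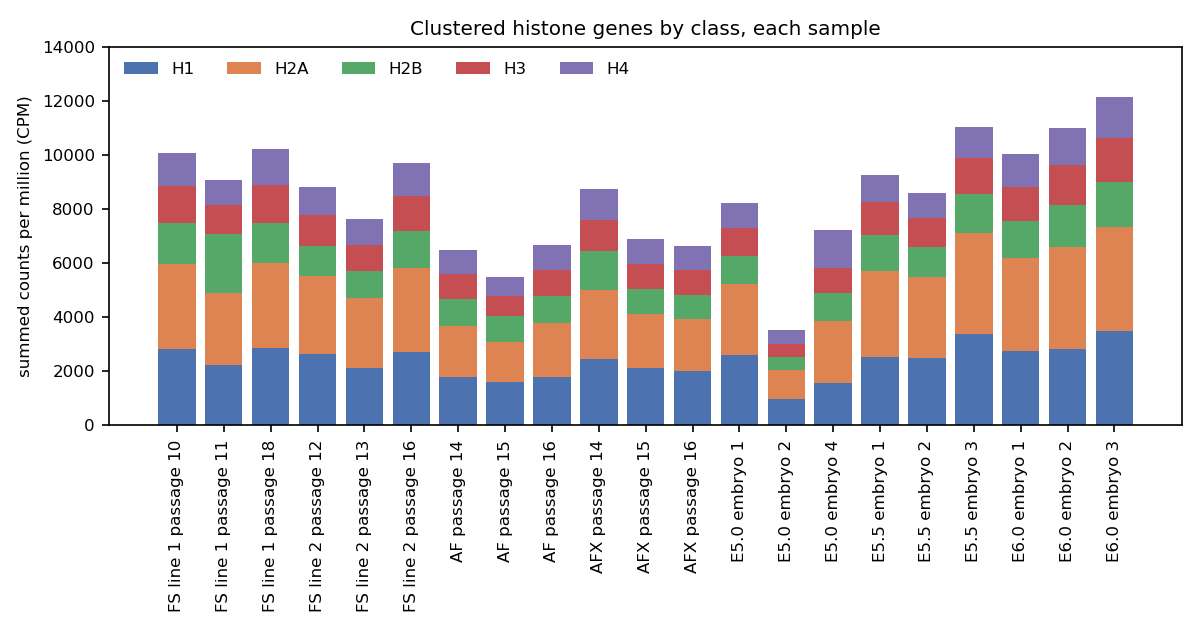
Summed level of the clustered histone genes in scaled counts (CPM) in each of the 21 samples, stacked by class (H1, H2A, H2B, H3, H4). E6.0 samples (10035 to 12137 CPM) lie above all AF (5492 to 6688) and AFX samples, E5.0 embryo 2 (3510 CPM) is the lowest, and the classes keep similar proportions in most samples.

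The class composition varied less than the sum. H1 made up 21.9% to 31.6% of the histone counts, H2A 27.0% to 35%, H3 11.6% to 14.3%, H2B 12.5% to 24.0% and H4 10.3% to 19.4%. By symbol, Hist1 members supplied 86.4% to 91.4%, Hist2 7.50% to 12.4%, Hist3 0.303% to 0.900% and Hist4h4 0.410% to 1.90%. The Hist1 and Hist2 shares include the near-identical rows Hist1h2al and Hist2h2aa2, whose levels were linked as described below. The lowest Hist2 shares, 7.50% and 7.69%, were in E5.5 embryo 1 and E6.0 embryo 2. There Hist2h2aa2 took 6.81% and 7.62% of the reads of both rows. The part of these rows in the cluster shares was not tested. Both class extremes came from 1 sample each, the H2B share from FS line 1 passage 11 and the H4 share from E5.0 embryo 4.

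Level per length, in CPM per kilobase of annotated exon averaged over samples, was highest for Hist1h2ai, a core H2A gene, at 2201, and was 24.3 for Hist1h2aa and 24.4 for Hist1h1t. Near-identical coding sequence limits such gene-level values. Of the 50-base stretches of a member's transcript, the share found in no other gene had a median of 98.9% for H1, 60.5% for H4, 56.2% for H2B, 39.6% for H3 and 32.4% for H2A. Hist1h2ai had 9.88% unique stretches and shared 84.0% with Hist1h2ad, and 31 members were under 50%. How reads that fit several genes were counted is not given in the sources used here, so the levels of the highly shared members are uncertain one by one. Antisense genes overlap 22 members, and the counting is not stated to use strand.

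Across the 6 group means, the ratio of the highest to the lowest had a median of 1.94. It was under 2 for 37 members and over 3 for 10. E6.0 had the highest mean for 46 members, FS for 13, E5.5 for 5, E5.0 for 3 and AFX for 1. AF had the lowest mean for 35 members and E5.0 for 30.

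FS cells had higher levels of many core and linker histone genes than AF cells. In FS, 26 of the 67 members tested were higher than in AF and 1, Hist1h3c, was lower. Over all genes tested 19.5% were called in either direction, 8.86% as higher in FS. The median log2 fold change of the members was 0.47, against 0.02 for all genes. By class, the members called higher were 3 of 6 H1, 11 of 18 H2A, 3 of 19 H2B, 5 of 11 H3 and 4 of 13 H4 genes. Leaving out AF passage 15 left 15 calls, 14 of them higher in FS, and leaving out AF passage 14 left 17, all higher in FS. Feeder fibroblast and visceral endoderm markers, whose values are given above, were also higher in AF than in FS without overlap. So were the lists for primitive streak (5 genes, 113.6 to 436.5 summed CPM in AF against 34.9 to 104.4 in FS) and extraembryonic ectoderm (5 genes, 67.8 to 162.9 against 28.4 to 59.1). The naive pluripotency list (6 genes) was likewise higher in AF, at 75.8 to 83.8 against 18.5 to 38.7, and the epiblast list (7 genes) lower, at 1223 to 1850 against 2107 to 3162. Eomes is in both the primitive streak and the extraembryonic ectoderm list, and Esrrb in both the latter and the naive list. The sums of these lists are therefore not independent. The part of these markers in the histone differences was not tested. The share of ribosomal RNA was 20.0% to 24.6% in FS and 25.4% to 28.4% in AF, and without those loci 27 members were called, 26 of them higher in FS.

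The linker histone Hist1h1e stood at 727, 553 and 685 CPM in FS line 1, 733, 531 and 717 in line 2 and 424, 380 and 371 in AF. The groups did not overlap, and the log2 fold change was 0.67 ± 0.12 (SE; adjusted p = 0.0013). Hist1h1c, whose RNA is also known to be polyadenylated in differentiated cells, was 0.61 ± 0.16 higher on the log2 scale (adjusted p = 0.017), a call lost without AF passage 14 or 16. Hist1h1d, another H1 gene of high level, averaged 458 CPM in FS and 439 CPM in AF, and its log2 fold change was -0.02 ± 0.11 (adjusted p = 0.92).

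Among the core histones, Hist1h2ai stood at 1091, 712 and 1099 CPM in FS line 1, 969, 828.8 and 973 in line 2 and 592, 480 and 651 in AF. It was 0.64 ± 0.15 higher in FS on the log2 scale (adjusted p = 0.0066). The H2A genes Hist1h2ao and Hist1h2ap, which share over 90% of their 50-base stretches (93.5% of those of Hist1h2ao) and so cannot be read apart, were higher by 0.95 ± 0.14 and 0.83 ± 0.17 (adjusted p = 0.00033 and 0.0028).

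A few members differed more than the rest. Hist3h2ba, an H2B gene of the small Hist3 cluster whose promoter is shown above, stood at 67.1, 39.2 and 57.9 CPM in FS line 1, 60.6, 62.8 and 83.0 in line 2, 21.6, 20.9 and 18 in AF and 37.5, 25.4 and 24.3 in AFX. All FS samples were above all AF and AFX samples. The log2 fold change was 1.53 ± 0.20 against AF (adjusted p = 0.00011) and 1.01 ± 0.19 against AFX (adjusted p = 0.0039). Hist1h4c, an H4 gene of the Hist1 cluster, stood at 52.7, 36.6 and 57.5 CPM in FS line 1, 38.0, 42.9 and 47.9 in line 2, 16, 13.3 and 23.1 in AF and 26.9, 17.7 and 17.6 in AFX. Its groups did not overlap either. The differences were 1.31 ± 0.21 against AF (adjusted p = 0.00051) and 1.07 ± 0.21 against AFX (adjusted p = 0.0039). The other H4 genes had smaller differences: Hist1h4m was higher by 0.70 ± 0.15 against AF (adjusted p = 0.0046), and Hist1h4d, an H4 gene of higher level, had a log2 fold change of 0.28 ± 0.17 (adjusted p = 0.26).

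**Figure D2:**
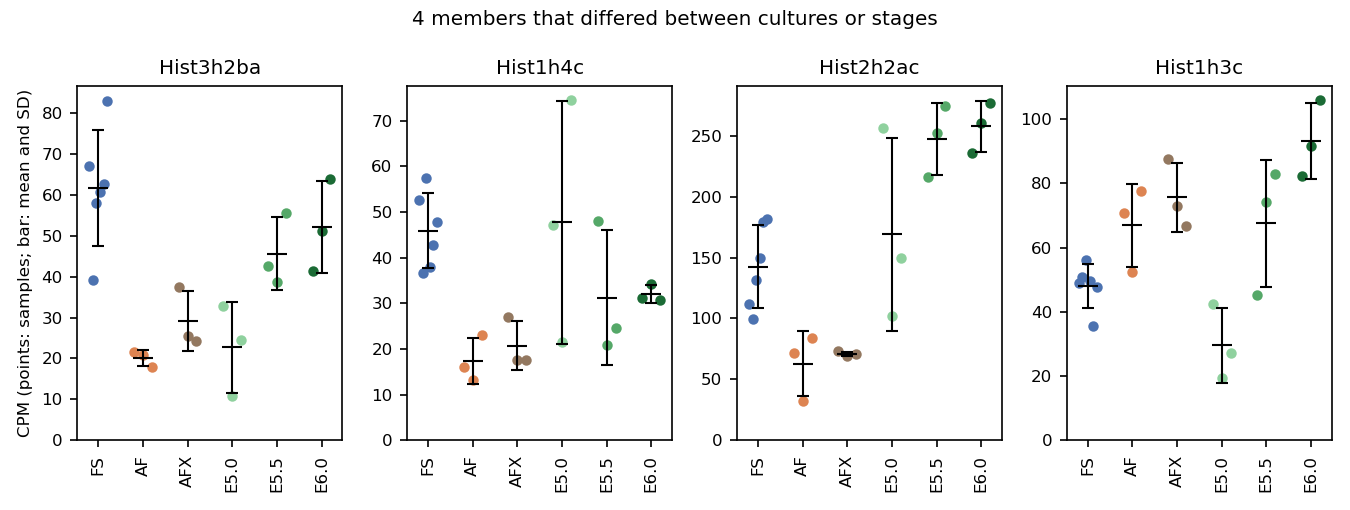
Levels of Hist3h2ba, Hist1h4c, Hist2h2ac and Hist1h3c in CPM (linear axes from 0) in the 6 groups, each point 1 sample, with mean and SD. FS samples lie above AF and AFX for the first 3 genes, and for Hist1h3c FS lies below AFX (35.4 to 56.1 against 66.6 to 87.5 CPM).

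Hist2h2ac, an H2A gene of the Hist2 cluster with its own loop sequence, stood at 112, 99.8 and 132 CPM in FS line 1, 150, 179 and 182 in line 2, 72, 32.6 and 83.7 in AF and 72.9, 69.2 and 71.0 in AFX. It was 1.10 ± 0.26 higher in FS than in AF on the log2 scale (adjusted p = 0.01) and 0.93 ± 0.26 higher than in AFX (adjusted p = 0.042). The second of these calls was lost without filtering and without most single samples (adjusted p up to 0.142). Hist1h3c, an H3 gene, went the other way. It stood at 49.0, 50.9 and 56.1 CPM in FS line 1, 49.5, 35.4 and 47.8 in line 2, 70.9, 52.5 and 77.5 in AF and 87.5, 73.0 and 66.6 in AFX. It was lower in FS by a log2 fold change of -0.56 ± 0.15 against AF (adjusted p = 0.016, lost without AF passage 14 or 16) and -0.72 ± 0.15 against AFX (adjusted p = 0.0062).

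Against AFX, 9 of the 67 members tested were called, 8 higher in FS and Hist1h3c lower, a share of 13.4% beside 8.7% of all genes in either direction and 3.78% as higher. Members had a median log2 fold change of 0.23, against 0.00 for all genes. No H1 gene was called, and the higher members were 3 H2A, 2 H2B, 1 H3 and 2 H4 genes. The count was 5 without AFX passage 15 or without AFX passage 16, and 14 with the FS lines as separate groups. FS enters this comparison and that with AF, so the results of these comparisons are not independent of each other.

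Between AFX and AF, 0 of the 67 members passed the threshold in edgeR, beside 8.73% of all genes. At an unadjusted p under 0.05 there were 8, all higher in AFX, beside 21.8% of all genes at that threshold, and DESeq2 called 1. A positive value was found in 63 of 67 members, with a median of 0.24 on the log2 scale against 0.01 for all genes. Hist1h1t had the largest difference among the H1 genes, at 5.51, 4.54 and 4.32 CPM in AFX and 2.57, 2.92 and 2.82 in AF, with no overlap, and did not pass the test (0.78 ± 0.37, adjusted p = 0.23).

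Between the FS lines, 3 of 67 members were called, 1 higher and 2 lower in line 2, beside 3.85% of all genes. The 3 were the H2A rows Hist1h2al and Hist2h2aa2, described below, and the H2B gene Hist1h2bl, which was -0.79 on the log2 scale in line 2 and lost its call without FS line 1 passage 11 or without FS line 2 passage 12 or 13 (adjusted p up to 0.173). DESeq2 called 9 members, 8 of them lower in line 2, and edgeR without a filter called 12, 10 of them lower. The median log2 fold change was -0.24, and 61 of 67 members had a lower value in line 2. The H2B class had the lowest median, -0.50, with 11 of its 19 genes not overlapping between the lines, beside 27.4% of all genes. FS line 1 passage 11, in which the H2B share was high, belongs to line 1.

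In the embryo, histone gene levels were higher at E6.0 than at E5.0. Of the 68 members, 23 were higher at E6.0 and 0 lower, beside 21.8% of all genes in either direction and 10.2% as higher. The median log2 fold change was 0.73, against -0.02 for all genes. By class, the calls were 1 of 6 H1, 7 of 19 H2A, 9 of 19 H2B, 5 of 11 H3 and 1 of 13 H4 genes. The H4 genes summed to 910, 484 and 1403 CPM in E5.0 embryos 1, 2 and 4 and to 1200 to 1495 CPM at E6.0. Only E5.0 embryo 4, whose H4 share was high (19.4%), lay within the E6.0 range. DESeq2 called 35 members, all higher at E6.0. In edgeR, leaving out E6.0 embryo 2 left 12 calls and leaving out E6.0 embryo 3 left 11. Without E5.0 embryo 2 the median was 0.48 and 29 members were called, 26 higher and 3 lower. Visceral endoderm markers, whose values are given above, were higher at E5.0. The epiblast list was lower there, at 3522 to 3778 summed CPM, with 4810 to 5107 at E5.5 and 5502 to 6195 at E6.0. The part of both lists in these differences was not tested.

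Hist1h3c had a large change between the stages. It stood at 42.4, 19.4 and 27.0 CPM at E5.0, 45.3, 74.3 and 83.0 at E5.5 and 82.3, 91.6 and 106 at E6.0. It rose by 1.66 ± 0.27 on the log2 scale from E5.0 to E6.0 (adjusted p = 0.0013), with no overlap. Hist1h2bb, an H2B gene, stood at 23.1, 8.92 and 17.1 CPM at E5.0 and 38.1, 49.5 and 49.3 at E6.0 and rose by 1.48 ± 0.28 (adjusted p = 0.0019). Hist2h2ab, an H2A gene of the Hist2 cluster, stood at 18.6, 10.5 and 15.7 CPM at E5.0, 28.0, 36.4 and 24.0 at E5.5 and 33.8, 37.5 and 33.0 at E6.0, a rise of 1.21 ± 0.22 to E6.0 (adjusted p = 0.0014). Hist3h2ba, which was also high in FS, stood at 32.8, 10.8 and 24.5 CPM at E5.0 and 41.4, 51.2 and 63.9 at E6.0 and rose by 1.21 ± 0.32 (adjusted p = 0.019), a call that, among the samples left out singly, was lost without E5.0 embryo 4 or E6.0 embryo 3.

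The abundant H2B gene Hist1h2bn stood at 220, 118 and 238 CPM at E5.0 and 359, 387 and 449 at E6.0, a rise of 1.06 ± 0.24 (adjusted p = 0.013). Hist1h2ai stood at 800, 333 and 739 CPM at E5.0 and 1135, 1226 and 1242 at E6.0, a rise of 0.95 ± 0.28 that only just passed the threshold (adjusted p = 0.047) and failed it under several alternatives (adjusted p up to 0.133). The H1 gene Hist1h1d varied widely at E5.0. Hist1h1d stood at 672, 178 and 131 CPM at E5.0 and 796, 613 and 987 at E6.0, a log2 fold change of 1.33 ± 0.63 with an adjusted p of 0.19. Hist1h1b, the H1 gene that was called, rose by 0.92 ± 0.26 (adjusted p = 0.039).

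From E5.0 to E5.5, 2 of 68 members were called, Hist1h3c (log2 fold change 1.17 ± 0.27, adjusted p = 0.026) and Hist2h2ab (0.96 ± 0.22, adjusted p = 0.021), beside 6.82% of all genes. The call of Hist1h3c was lost without E5.0 embryo 2 or 4 and without E5.5 embryo 2 or 3 (adjusted p up to 0.0947). That of Hist2h2ab was lost without E5.5 embryo 1 or 2 (adjusted p up to 0.0967) and with the 2 groups alone. The median was 0.53, and 0.27 without E5.0 embryo 2. The count was 20 with DESeq2 and 18 without a filter, and it moved with single embryos: it was 13 without E5.0 embryo 1, 7 without E5.0 embryo 4, 1 without E5.5 embryo 1 or embryo 3 and 0 without E5.5 embryo 2. From E5.5 to E6.0, 0 of 68 members were called by edgeR, beside 4.43% of all genes. There were 2 at an unadjusted p under 0.05, both H4 genes, beside 18.5% of all genes at that threshold, and DESeq2 called 1. Without a filter edgeR called 5 (4 higher and 1 lower at E6.0), and with the 2 groups alone it called 4 (3 higher and 1 lower). The median was 0.25, against -0.02 for all genes.

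**Figure D3:**
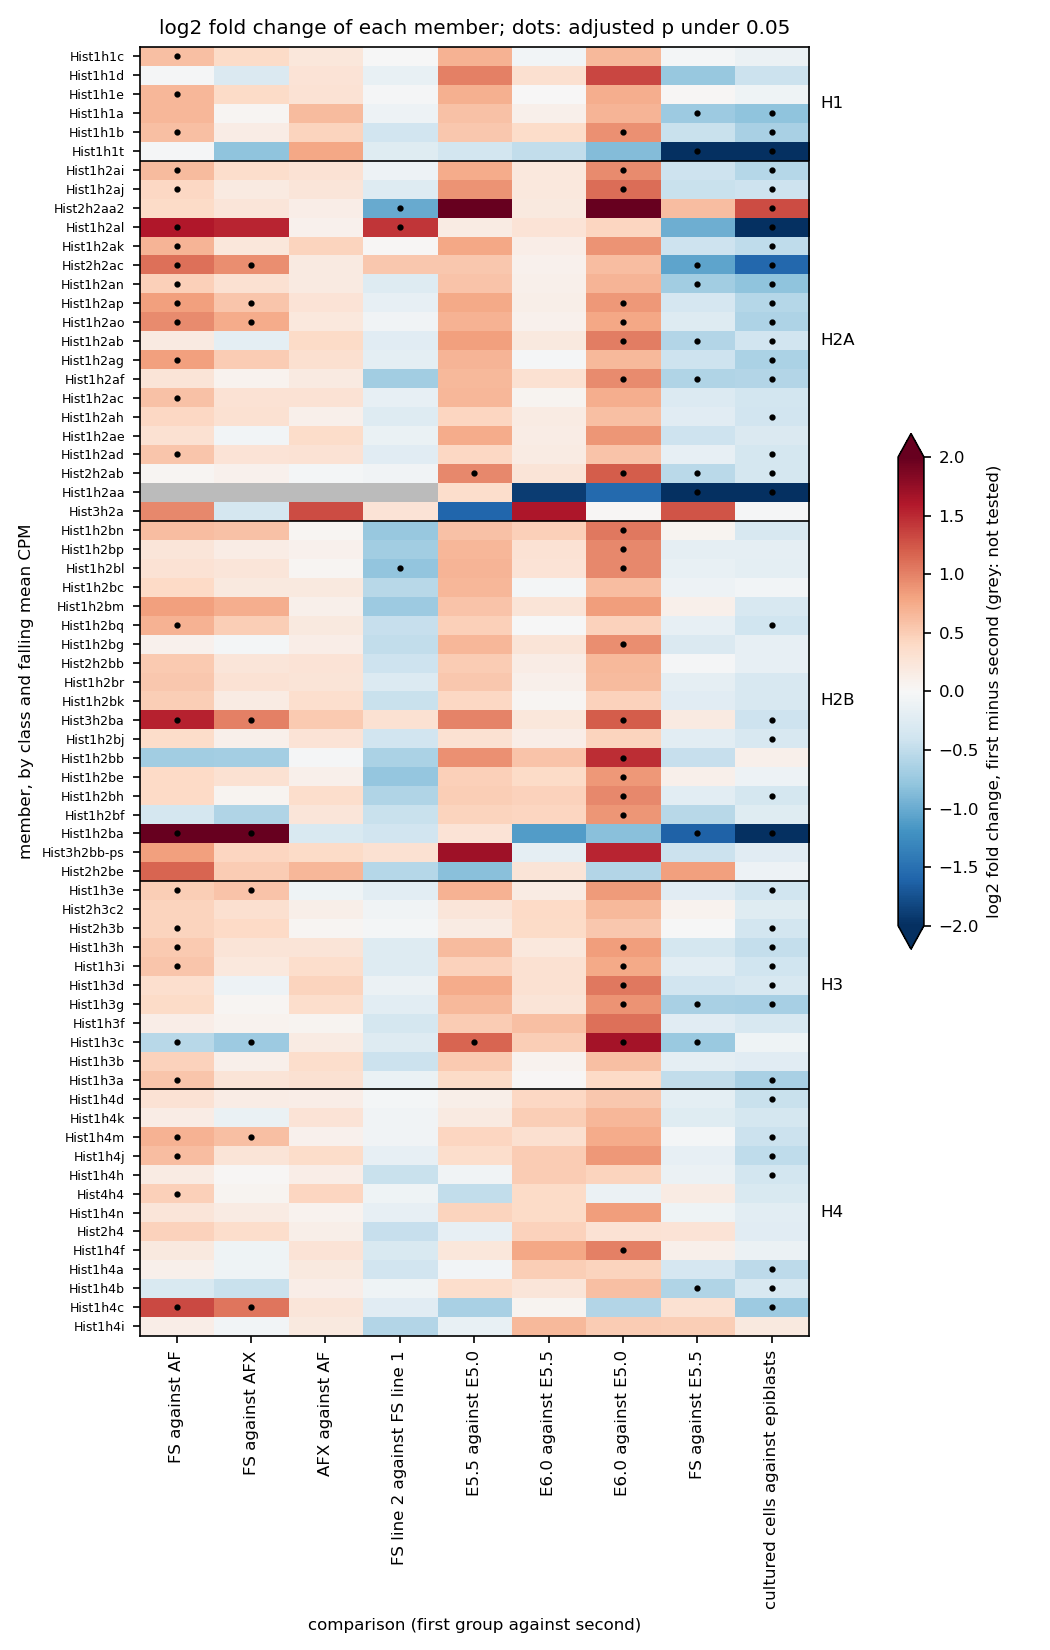
Log2 fold change of each of the 68 members (rows, grouped by class, by falling mean level) in the 9 comparisons (columns, first group minus second), with the colour scale ending at -2 and 2, and dots where edgeR's adjusted p was under 0.05. The columns for FS against AF and E6.0 against E5.0 are mostly red, with 27 and 23 dots, and that for cultured cells against epiblasts is mostly blue, with 38.

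Between FS and E5.5 epiblasts, the members' share of calls was no larger than that of all genes. Of 68 members, 12 were lower in FS and 0 higher, a share of 17.6%, below the 43.8% of all genes called in either direction and near the 20.8% called as lower. The median log2 fold change was -0.23, against 0.08 for all genes. Without E5.5 embryo 3 the count was 6. The ratio of the sums was 0.962 as CPM and 0.807 with TMM scaling. Without E5.5 embryo 3 the log2 ratio of the sums turned from -0.06 to 0.05.

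Over all cultured groups against all epiblast groups, 37 of 68 members were lower in culture and 1, Hist2h2aa2, higher, beside 61.8% of all genes in either direction and 27.9% as lower. The median was -0.36, against 0.09 for all genes. By class, 3 of 6 H1, 15 of 19 H2A, 5 of 19 H2B, 7 of 11 H3 and 7 of 13 H4 genes were lower. The H2A genes counted as lower include Hist1h2al, which is described together with Hist2h2aa2 below. Each cultured sample was 1000 cells and each embryonic sample 1 epiblast, and this difference in input cannot be told apart from that between culture and embryo. The feeder fibroblast list summed to 16 to 173.9 CPM in cultured samples and 6.13 to 13.98 in epiblasts, and the epiblast list to 1223 to 3162 and 3522 to 6195 CPM, both without overlap. The part of these lists in the differences was not tested. Hist1h1a, an H1 gene typical of dividing cells, stood at 304 to 465.8 CPM in FS with a median of 403 and at 473, 522 and 668 CPM at E5.5, and was lower in FS by a log2 fold change of -0.73 ± 0.24 (adjusted p = 0.022, lost without E5.5 embryo 3 and without a filter, at up to 0.127). Hist1h1e, in contrast, had a log2 fold change of 0.03 ± 0.18 between FS and E5.5 (adjusted p = 0.90).

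Of the testis-type members, Hist1h2aa and Hist1h1t separated every cultured sample from every epiblast, and Hist1h2ba did not. Hist1h2aa, which encodes TH2A, had 0, 1, 0, 2, 0 and 1 reads in the FS samples and at most 1 read in each AF and AFX sample. In epiblasts it stood at 45.5, 3.09 and 27.6 CPM at E5.0 (377, 18 and 259 reads), 21.8, 18.1 and 56.8 CPM at E5.5 and 7.39, 7.07 and 11.1 CPM at E6.0. Every epiblast was above every cultured sample. Against a floor of 3 reads per sample, FS was at least 109-fold lower than E5.5, and cultured cells were at least 73.3-fold lower than epiblasts. Without E5.5 embryo 3 these bounds were 67.1-fold and 59.7-fold. The gene failed the filter on low counts in the fit of cultured samples and entered the fit of all 21 samples through the epiblasts, where it is high, so its calls there, which the counts above include, are no support. Of its 50-base stretches 97.7% occur in no other gene.

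Hist1h2ba, which encodes TH2B and shares much of the Hist1h2aa promoter window shown above, did not follow it in culture. It stood at 10.6, 7.61 and 10.1 CPM in FS line 1, 6.41, 6.04 and 9.49 in line 2, 1.42, 2.37 and 1.75 in AF and 1.86, 1.56 and 1.12 in AFX. All 6 FS samples were above all 6 EpiSC samples, by a log2 fold change of 2.08 ± 0.30 against AF (adjusted p = 0.00028) and 2.39 ± 0.31 against AFX (adjusted p = 0.0002). In epiblasts it stood at 24.0, 4.81 and 23.7 CPM at E5.0, 19.5, 12 and 33.0 at E5.5 and 9.56, 9.30 and 10.5 at E6.0. FS was lower than E5.5 by a log2 fold change of -1.61 ± 0.34 (adjusted p = 0.00051), without overlap, while the ranges of FS and E6.0 overlapped. Its unique share of 50-base stretches was 61.8%, with 38.2% shared with Hist1h2bj, and FS levels rested on 52 to 151 reads per sample.

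Hist1h1t, which encodes H1t and has only unique 50-base stretches (100%), stood at 3.28, 2.32 and 3.71 CPM in FS line 1, 2.72, 1.28 and 3.90 in line 2, 74.6, 22.5 and 85.7 at E5.0, 38.7, 45.7 and 59.5 at E5.5 and 26.3, 31.8 and 41.7 at E6.0. With the AF and AFX levels given above, no cultured sample reached any epiblast. The log2 fold change was -4.28 ± 0.31 for FS against E5.5 (adjusted p = 1.2e-09) and -3.98 ± 0.22 for cultured cells against epiblasts (adjusted p = 4.1e-12).

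Within the embryo the testis-type genes had their lowest mean at E6.0, the stage at which most members were highest. From E5.0 to E6.0 the log2 fold changes were -1.55 ± 0.85 for Hist1h2aa, -0.84 ± 0.51 for Hist1h2ba and -0.86 ± 0.44 for Hist1h1t, none past the threshold (adjusted p = 0.25, 0.28 and 0.21). E5.0 embryo 2 was low for all 3 genes, as it was for most members. Without it the values were -2.04, -1.25 and -1.23, with adjusted p of 0.024, 0.016 and 0.0025, and these were the 3 members called lower in that fit.

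**Figure D4:**
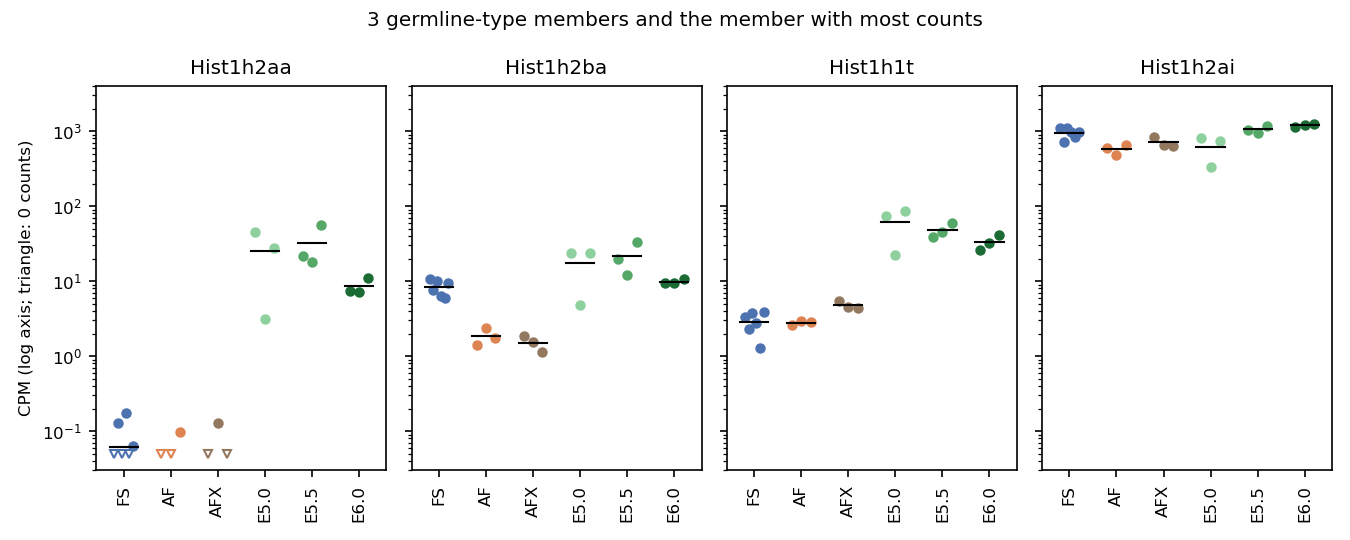
Levels of Hist1h2aa, Hist1h2ba, Hist1h1t and, for scale, Hist1h2ai in CPM (log axis) in the 6 groups, each point 1 sample and each bar the group mean; open triangles are samples with 0 counts. Hist1h2aa is at most 0.176 CPM in culture and 3.09 to 56.8 in epiblasts, whereas Hist1h2ba in FS (6.04 to 10.6 CPM) lies above AF and AFX.

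Hist2h2aa2 and Hist1h2al, a core H2A gene of the Hist2 cluster (chr3:96239749-96240276) and a processed pseudogene (chr13:51202727-51203065), were linked in an unusual way. Over the 339 bases that align they differ at 2 (99.4% identity), and 65.5% of the 50-base stretches of Hist1h2al lie in Hist2h2aa2 and 39.7% of those of Hist2h2aa2 in Hist1h2al. No 50-base stretch of Hist2h2aa2 is unique, since all of them (100%) also lie in the gene model Gm20633. Hist2h2aa2 stood at 537, 618 and 513 CPM in FS line 1, 285, 265 and 302 in FS line 2, 329, 263 and 323 in AF and 390, 297 and 328 in AFX. In epiblasts it stood at 35.1, 22.7 and 32.5 CPM at E5.0, 43.6, 282 and 364 at E5.5 and 339, 57.4 and 385 at E6.0. Embryos of E5.5 and of E6.0 thus differed several-fold within their stage, while all E5.0 embryos were low.

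Hist1h2al was high where Hist2h2aa2 was low. It stood at 107, 185 and 98.9 CPM in FS line 1, 378, 299 and 400 in line 2, 73.1, 74.0 and 79.7 in AF, 101, 65.8 and 74.5 in AFX, 436, 205 and 432 at E5.0, 597, 272 and 344 at E5.5 and 357, 695 and 393 at E6.0. Hist2h2aa2 took 77.0% to 83.8% of the reads of both rows in the 9 samples of FS line 1, AF and AFX, 43.0% to 51.4% in 7 samples (FS line 2, E5.5 embryos 2 and 3, and E6.0 embryos 1 and 3) and 6.81% to 9.97% in 5 samples (the E5.0 embryos, E5.5 embryo 1 and E6.0 embryo 2). No sample lay between these ranges. Passages of a line shared a range, as did the E5.0 embryos, whereas the E5.5 and the E6.0 embryos were divided between the lower 2 ranges. The cause was not tested.

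Several calls on these rows follow this division. Between the FS lines, Hist2h2aa2 was lower in line 2 (log2 fold change -1.0 ± 0.12, adjusted p = 0.00017) and Hist1h2al higher by 1.43 ± 0.22 (adjusted p = 0.0019), while the sum of both rows was 612 to 803 CPM in line 1 and 564 to 701 CPM in line 2. Hist1h2al was 1.61 ± 0.46 higher in FS than in AF (adjusted p = 0.032), a difference that is largest in FS line 2. This call was lost without a filter, with the 2 groups alone, without FS line 2 passage 12 or 13 and without any 1 of the AF samples (adjusted p up to 0.109). The log2 fold change of Hist2h2aa2 from E5.0 to E6.0 was 3.10 ± 1.01 (adjusted p = 0.08). Its 1.31 ± 0.37 in cultured cells against epiblasts (adjusted p = 0.0057) is the only call of a member as higher in culture in that comparison. Hist1h2al is among the members called lower there, at a log2 fold change of -2.18 to -1.94 with single samples left out.

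**Figure D5:**
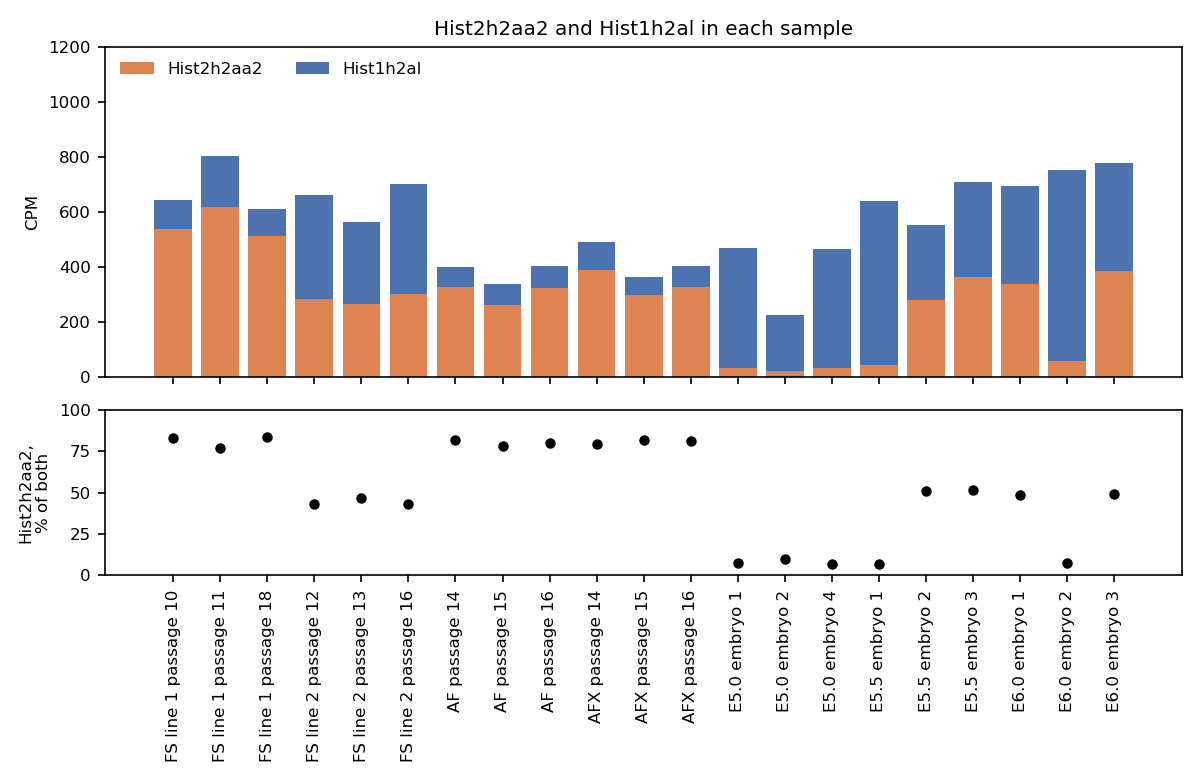
Upper panel, stacked levels of Hist2h2aa2 and Hist1h2al in scaled counts (CPM) in each sample; lower panel, Hist2h2aa2 as a percent of the sum of both. The percent falls into ranges of 77.0 to 83.8, 43.0 to 51.4 and 6.81 to 9.97, with embryos of E5.5 and E6.0 in the lower 2 of these.

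Genes that act on histone RNA and protein were compared over lists chosen for this purpose. Of 19 genes tested for histone mRNA transcription and processing, 0 were higher and 2 lower in FS than in AF, Zfp473, which encodes a U7 snRNP-associated protein, and Upf1, a decay factor. The median log2 fold change of the list was 0.04, against 0.02 for all genes. Slbp, which encodes the stem-loop binding protein, stood at 148, 144 and 129 CPM in FS line 1, 92.1, 102 and 87.8 in line 2 and 149, 82.0 and 127 in AF, with overlap. Between FS and E5.5, 9 of the 19 were lower in FS and 1, Zfp473, higher, beside 43.8% of all genes in either direction and 20.8% as lower. Slbp was among the lower genes with a log2 fold change of -0.47.

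The list of 20 S phase genes had a median log2 fold change of 0.16 in FS against AF, beside 0.02 for all genes. From E5.0 to E6.0, where 23 histone genes rose, 0 S phase genes rose and 8 fell (21.8% of all genes were called in either direction), among them Cdc6, which loads the replicative helicase (-0.75 ± 0.12, adjusted p = 0.00063), and Pcna, the polymerase clamp (-0.39 ± 0.10, adjusted p = 0.016). The list median was -0.17. In FS against E5.5, 18 of the 20 were lower and 0 higher, beside 20.8% of all genes as lower, with a median of -0.72 against 0.08 for all genes. In cultured cells against epiblasts 19 of the 20 were lower, beside 27.9% of all genes, with a median of -0.73 against 0.09. Pcna stood at 119 to 164 CPM in FS with 214, 221 and 217 at E5.5.

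The counts of the next lists stand beside 19.5% of all genes called in FS against AF, 8.86% as higher, and 21.8% in E6.0 against E5.0. Of 9 histone chaperone genes, 3 were higher in FS than in AF and 0 lower: Nasp, a carrier of H1 and H3-H4 (0.42 ± 0.14, adjusted p = 0.048), Chaf1b, a subunit of the chromatin assembly factor (0.38 ± 0.12, adjusted p = 0.04) and Atrx (0.28 ± 0.08, adjusted p = 0.024). From E5.0 to E6.0 Nasp rose (0.35 ± 0.08, adjusted p = 0.0075), and 3 of the 9 fell. Of 11 replication-independent variant genes tested, 4 were higher in FS than in AF and 1 lower. H1f0, the linker histone of slowly dividing and differentiated cells, stood at 242, 324 and 172 CPM in FS line 1, 151, 148 and 232 in line 2, 106, 77.4 and 77.5 in AF and 27.6, 31.0 and 35.8 at E5.5. It was 1.21 ± 0.28 higher in FS than in AF (adjusted p = 0.0082) and 2.49 higher than at E5.5 on the log2 scale. The variant lower in FS than in AF was H2afy, a macroH2A gene (-1.23 ± 0.36, adjusted p = 0.032). Of 12 mitosis genes, 3 were higher in FS than in AF and 0 lower.

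Since most members normally lack a poly(A) tail, other RNAs that lack one in whole or in part were set beside them. Of 9 such RNAs tested, 0 were higher and 2 lower in FS than in AF, Rpph1, the RNA of RNase P (-1.04 ± 0.13, adjusted p = 7.2e-05), and Neat1 (-1.90 ± 0.35, adjusted p = 0.0021), whose short form is polyadenylated, so its count mixes both kinds. From E5.0 to E6.0 0 of the 9 were called, with a median of -0.72. Rmrp, the RNA of RNase MRP, stood at 1557 CPM in E5.0 embryo 4 and 1020 in embryo 2, against 343 in embryo 1, and at 346 to 886 CPM in the later epiblasts.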

How the data were processed

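RNA of 12 cultured samples and 9 epiblasts was sequenced. The submitters' processing notes name Trim Galore, TopHat2 2.1.0, featureCounts 1.5.0 and the mm10 build. The annotation, strand setting and handling of reads that fit several genes are not given in the sources used here. The authors deposited 1 table of raw counts per gene. Groups came from the titles. The smallest chi-square per degree of freedom between replicates was 4.84, so no pair of replicates was alike within sampling noise.

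Counts were fitted in R 4.3.3 with edgeR 4.0.16 (filterByExpr, TMM, robust quasi-likelihood F-tests, two-sided), over all genes kept, with Benjamini-Hochberg adjustment and 0.05 as the threshold. The cultured comparisons used 12 samples, the stage comparisons 9 and the rest 21, with groups weighted equally. Log2 fold changes have their SE. CPM is the count scaled to a total of 1000000 in each sample. A bound takes 3 counts per sample as the floor and covers counting error only. Where nothing says that samples came from separate cultures, p-values measure only the spread between these samples, which may be technical.

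Positions, transcripts and gene types came from GENCODE M21 (66 members matched by identifier, 2 by symbol), promoters from RefSeq. Alternatives were DESeq2 1.42.0 size factors and Wald test, no filter, scaling without histone genes, removal of ribosomal RNA loci, FS lines as separate groups, the 2 groups alone, a replicate block and each sample left out.

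The members, gene lists and tests were chosen with earlier results of these data known. Named members were the 4 most abundant of each class, the testis-type, polyadenylated and small-cluster genes, and the largest calls of each comparison with at least 10 CPM and no overlap, 33 in all. A few more are named as examples chosen after their values were seen. The fits were tested on simulated data with 200 changed genes: for FS against AF, 49% of 2-fold and 75% of 4-fold changes were recovered, with 4 false of 128 calls. For E6.0 against E5.0 the figures were 41%, 72% and 5 of 118, and for cultured cells against epiblasts 56%, 86% and 8 of 150. Figures were drawn with matplotlib 3.10.9.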

Additional observations from a re-analysis of the deposited data

Results flagged for a closer look

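The H2B share of the histone counts in FS line 1 passage 11 was 24.0%, while the other 5 FS samples had 12.7% to 15.1%. The gap was 0.785 of the group's range, above the 95% limit of Dixon's test for 6 samples (0.625). It was the only one of 39 group values tested to pass, and chance passes about 1 in 20. Of the 19 H2B genes, 14 were higher in this sample than in the other 5 FS samples, among them Hist1h2bn, at 608 CPM against 214 to 370, and Hist1h2bp, at 324 against 128 to 209.8. Of all genes tested in cultured cells, 18.9% were highest in this sample among the FS samples. So were 5 of the 9 measured RNAs listed as lacking a poly(A) tail in whole or in part, among them Rmrp, at 1207 CPM against 368 to 534 in the other FS samples. The part of these RNAs in the H2B share was not tested.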

How the results depend on the processing

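DESeq2's Wald test called 14 for FS against AFX, 1 for AFX against AF, 9 between the FS lines, 20 for E5.5 against E5.0, 1 for E6.0 against E5.5 and 35 for E6.0 against E5.0. Without a filter on low counts the calls were 12 between the FS lines, 18 for E5.5 against E5.0 and 5 for E6.0 against E5.5. With the FS lines as separate groups FS against AFX had 14. With the 2 groups alone E5.5 against E5.0 had 1 and E6.0 against E5.5 had 4. The cause was not tested.

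Leaving out 1 sample at a time gave 15 to 29 calls for FS against AF, 5 to 12 for FS against AFX, 0 for AFX against AF, 2 to 4 between the FS lines, 0 to 13 for E5.5 against E5.0, 0 for E6.0 against E5.5, 11 to 32 for E6.0 against E5.0, 6 to 14 for FS against E5.5 and 30 to 52 for cultured cells against epiblasts. The log2 ratio of the summed level for FS against E5.5 ran from -0.13 to 0.0533, the latter, opposite in sign, without E5.5 embryo 3. The 63 calls on named members had 1148 values under the alternatives, of which 1053 stayed past the threshold, 95 did not (76 of these with 1 sample left out) and 0 changed sign.

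Passage and embryo numbers did not pair the samples: same-numbered AF and AFX samples had correlations of their deviations of -0.156, -0.117 and 0.243, and same-numbered epiblasts -0.094 to 0.106. With the number as a replicate block, AFX against AF had 0 calls, E5.5 against E5.0 had 0, E6.0 against E5.5 had 1 and E6.0 against E5.0 had 24. Among named members, the block ended both E5.5 against E5.0 calls (Hist1h3c and Hist2h2ab) and the E6.0 against E5.0 calls of Hist3h2ba, Hist1h2ai, Hist1h2aj and Hist1h2bl. Depth limits Hist1h2aa in culture, where no sample had more than 2 reads.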

Other observations

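In E5.0 embryo 4, H4 genes made up 19.4% of the histone counts. Of the 13 H4 genes, 4 were higher in this embryo than in the other 8 epiblasts, among them Hist4h4, at 137 CPM against 28.3 to 82.7, and Hist2h4, at 86.9 against 19.7 to 73.7. Of all 14228 genes tested in epiblasts, 14.7% were highest in this embryo, as were 7 of the 9 measured RNAs listed as lacking a poly(A) tail in whole or in part, among them Rmrp (1557 CPM) and Rpph1 (633 CPM). The part of these RNAs in the H4 share was not tested. The abundant H4 gene Hist1h4d was within the range of the others, at 359 CPM against 142 to 394, while the H1 gene Hist1h1d was at 131 CPM, the lowest of the 21 samples.

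In AF passage 15, the H1 gene Hist1h1a was at 116 CPM against 275 and 319 CPM in the other AF passages, and Hist2h2ac was at 32.6 against 72 and 83.7 CPM. Hist1h1c was at 519 CPM there, against 412 and 371 CPM.

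Hist2h2be, an H2B gene whose RNA can be polyadenylated, was at 1.63 to 2.95 CPM in FS and 0.389 to 1.37 in AF, without overlap, and the log2 fold change of 1.16 ± 0.44 had an adjusted p of 0.081.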
